A study of Mus musculus with 6 samples.

Results

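The genes described here are 9 cytokine genes of B cells: *Il6*, *Il10*, *Tgfb1*, *Ebi3*, *Il12a* and the chemokine gene *Ccl22*, together with the genes of the TNF and lymphotoxin family *Tnf*, *Lta* and *Ltb*. They were chosen by name from a table of 54446 genes, and 8 of the 9 averaged 10 or more normalized counts over the libraries, as did 12322 genes in all. *Il10* did not. RNA was sequenced from naive B cells taken from mouse spleens by immunomagnetic negative selection and kept for 7 days in culture with LPS at 20 µg/ml and IL-4 at 20 ng/ml as activators. There were 3 libraries from *Tent5c* KO mice and 3 from WT mice, all adult littermates of heterozygous matings on a mixed C57BL/6J X CBA background, and each replicate number stands for 1 KO and 1 WT littermate. *Tent5c*, which encodes a cytoplasmic poly(A) polymerase, is disrupted in every cell of the KO line, so cells other than B cells lacked it as well. All 6 cultures received both agents, and naive or untreated cells were not compared here.

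B cells make antibodies, but they also secrete cytokines that shape other immune cells. LPS is sensed by TLR4, which acts through NF-κB, and NF-κB drives *Tnf*, *Il6*, the lymphotoxin genes and *Ebi3*. IL-4 acts through STAT6, and *Ccl22* is among the genes known to respond to it. Lymphotoxin β anchors lymphotoxin α in the B cell membrane, and the complex maintains follicular dendritic cells in lymphoid follicles, whereas IL-10, TGF-β1 and the EBI3-containing cytokines are the products for which regulatory B cells are known. Many cytokine mRNAs carry AU-rich elements in the 3′UTR, which recruit proteins that shorten or protect the poly(A) tail.

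Each value below is a normalized count: the number of RNA fragments on the exons of a gene, divided by a factor for its library. Depth ranged from 5393558 to 6793520 fragments on genes per library, and 3 fragments, taken as the floor of detection, correspond to 2.72 to 3.61 normalized counts. Floors and the counting intervals of ratios cover counting error only, whereas the intervals of log2 fold changes come from limma and rest on the spread between pairs. The 6 B cell markers summed to 27594 to 32723 normalized counts per library, and 1 of them, *Cd79a*, was at 1219 to 1398 in KO and 1405 to 1611 in WT (log2 fold change -0.21, unadjusted *p* = 0.0387, adjusted *p* = 0.970 in limma). Of the 12322 genes, 4.70% were under 0.05 unadjusted, and KO and WT did not overlap in 6.83%. The RNA is from bulk cultures, in which fewer cells of a type and less RNA per cell cannot be told apart. The normalized count of *Tent5c* itself was 1993, 993 and 1170 in KO 1, 2 and 3, and 1255, 767 and 1584 in WT 1, 2 and 3. The transcript was thus not lower in the libraries labelled KO (log2 fold change 0.20, SE 0.19, adjusted *p* = 0.970 in limma, and -0.033 without replicate 1). The authors state that the KO line was made by CRISPR with the same guide RNA as their line with a mutated catalytic site. The sources used here do not give the sequence that resulted. The level of *Tent5c* therefore does not check the genotypes, and every direction below rests on the labels.

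The 3′UTRs are shown because the poly(A) tail begins at their end and because the genes differ in the AU-rich elements they hold there. A complete AU-rich heptamer, TATTTAT in the DNA letters of the genome, is present in 6 of the 9 genes, and in 26.1% of the 20133 mouse genes with an annotated 3′UTR of at least 50 bases. Each line gives 30 bases around such an element on the strand of the gene, with complete heptamers in capitals. The windows were read from GRCm38 with the Gencode vM21 annotation, all within 3′UTR exons. Their positions are, in the order printed, chr17:35199678-35199707 on the minus strand, chr3:68698436-68698465 on the plus strand, chr17:35203394-35203423 on the minus strand, and chr5:30019727-30019756, chr1:131024384-131024413 and chr8:94750818-94750847 on the plus strand.
Tnf: tTATTTATTATTTATTTATTATTTATTTAT
Il12a: cTATTTATATTTATTTATtttcTATTTATt
Lta: aaagttaagtTATTTATTTATagagaatag
Il6: atttatgattgaTATTTATtatttttatga
Il10: ctctctccgaaaTATTTATtacctctgata
Ccl22: aagctatagttaTATTTATataggaaagag

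*Tnf* holds 8 copies of the heptamer in a 3′UTR of 764 bases, counting copies that overlap, and 5 of them lie in the window shown. *Il12a* holds 5 copies in 497 bases, *Il10* 4 in 706 bases and *Lta* 3 in 572 bases, while *Il6* holds 1 in 427 bases and *Ccl22* 1 in 1813 bases. Among 3′UTRs within 20% of the same length, the share with at least 1 copy is 19.1% for *Tnf*, 13.1% for *Il12a*, 18.5% for *Il10*, 15.0% for *Lta*, 10.5% for *Il6* and 38.2% for *Ccl22*. *Il6* has 6 copies of the shorter core ATTTA. Among 3′UTRs within 20% of its length, 46.4% have at least 1 copy and the median is 0. Of all 20133 genes, whatever the length, 63.2% have it at least once. *Tgfb1*, *Ebi3* and *Ltb* hold no heptamer in 3′UTRs of 135, 245 and 156 bases, and *Ltb* has no ATTTA either. These matches are letters in annotated 3′UTRs, and binding to them was not measured.

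Promoter windows are shown for the letters that the transcription factors activated by LPS and IL-4 are known to recognise. RefSeq promoters (GRCm38.p6, 250 bases before to 50 bases after the start site) were given for 8 of the 9 genes, all but *Il10*. The κB motif was searched on either strand as GGGRNNYYCC, where R is A or G, Y is C or T and N is any base. It was found in 4 of these 8, *Il6*, *Tgfb1*, *Ltb* and *Ebi3*, against 8.46% of 32851 mouse promoters. Capitals mark the κB motif, at -44 in *Il6* (chr5:30013060-30013089), at -140 in *Tgfb1* (chr7:25686852-25686881), at -87 in *Ltb* (chr17:35194410-35194439, where the motif lies on the opposite strand) and at -44 in *Ebi3* (chr17:55952569-55952598), all printed on the plus strand, which is the strand of these genes. *Ebi3* has a further κB match at 15 bases after its start. Positions are counted from the RefSeq start site, which for *Ltb* lies downstream of the gene start in Gencode vM21, 35194439.
Il6 promoter: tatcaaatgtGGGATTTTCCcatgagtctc
Tgfb1 promoter: cagggctgaaGGGACCCCCCttggagcccg
Ltb promoter: aagggtgttcGGAAAGTCCCcgggcagggg
Ebi3 promoter: gccccttcctGGGGCTTCCCcgttggccat

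The STAT6 motif TTCNNNNGAA, which reads the same on both strands, was found in 2 of the 8, *Il12a* and *Lta*, against 6.95% of all promoters. *Il12a* has it in each of its promoters, of which the first is shown (chr3:68690434-68690463, plus strand, at -200), and *Lta* has it at -91 (chr17:35205423-35205452, minus strand). *Tnf* has a TATA box (TATAAA or TATAAG, searched on the strand of the gene) at -29 (chr17:35202019-35202048, minus strand), and *Lta* has the same letters at -167, against 12.3% of all promoters. The promoter of *Ccl22* held none of these motifs in the window searched. Capitals mark the motif named.
Il12a promoter, STAT6 motif: aggagttaagTTCCAAGGAAtctcctaccc
Lta promoter, STAT6 motif: tgctcggccgTTCACTGGAActcctgggcc
Tnf promoter, TATA box: ttccccaagggcTATAAAggcggccgtctg

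To ask which of these genes B cells expressed at day 7, levels were compared per kb of exon, as normalized counts divided by the summed length of the exons of each gene. *Ebi3* had the highest level, 523 normalized counts per kb (458 to 559 over the 6 libraries), above 94.8% of the 12322 genes. *Ltb* followed with 343 per kb (268 to 460) and *Ccl22* with 284 per kb (231 to 350), above 91.9% and 90.5% of genes. The ranges of *Ebi3* and *Ltb* overlapped by a narrow margin, and those of *Ltb* and *Ccl22* overlapped widely. *Tnf* stood lower, at 147 per kb (120 to 177, above 81.4% of genes), and its range met neither that of *Ccl22* nor that of *Lta*, at 66.8 per kb (59.4 to 73.3). *Tgfb1* had 44.0 per kb (38.7 to 49.3), close to the middle of the genes tested. With the longest transcript in place of all exons it had 86.2 per kb and changed places with *Lta*, while the other 7 genes kept their rank. *Il6* had 27.7 per kb (14.6 to 42.6) and *Il12a* 9.20 per kb (3.54 to 15.7), above 35.8% and 13.3% of genes, and their ranges overlapped. *Il10* was last, at 2.73 per kb (0 to 8.65).

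**Figure D1:**
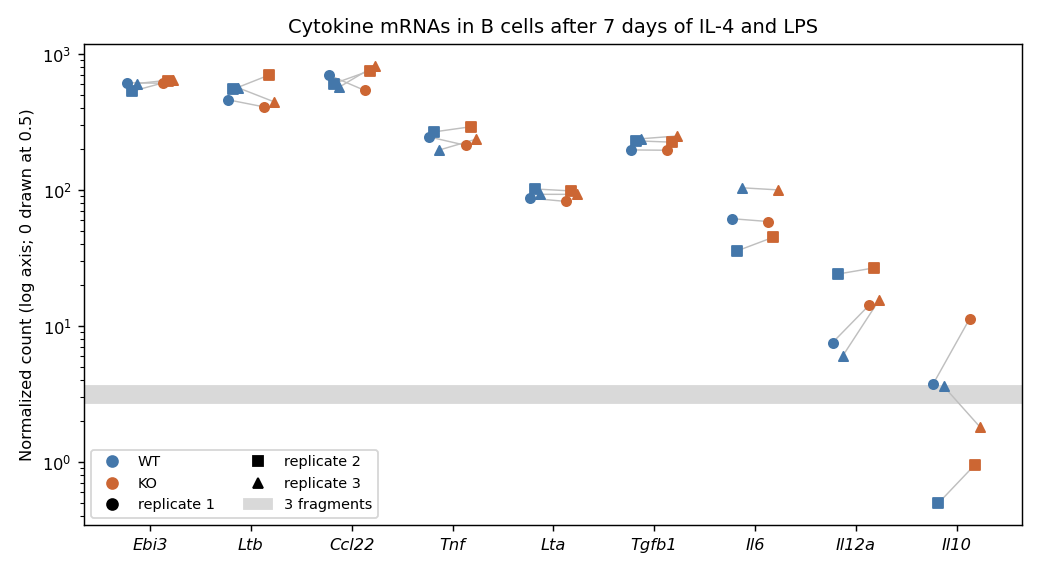
Normalized counts of the 9 genes in each library, on a log axis with 0 drawn at 0.5, with WT in blue, KO in orange, the replicate number given by the shape and a grey line joining the littermates. The grey band marks 3 fragments. *Ebi3*, *Ltb* and *Ccl22* lie between 407 and 814, *Il12a* lies between 6.02 and 26.7, and 4 of the 6 libraries of *Il10* lie at or under 3 fragments.

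*Il10*, which encodes the cytokine that defines one class of regulatory B cells (GRCm38 chromosome 1, 131019845 to 131024974, plus strand), was near the floor. It had 12, 1 and 2 fragments in KO 1, 2 and 3, and 4, 0 and 3 fragments in WT 1, 2 and 3, or 22 fragments in all. KO 1 and WT 1 were above the floor of 3 fragments, and the other 4 libraries were at or under it. In pair 1 the ratio of KO to WT was 3.00 with a 95% counting interval from 0.909 to 12.8, in pair 3 it was 0.503 (0.042 to 4.39), and no ratio is given for pair 2, where WT had 0 fragments. Both intervals include 1. A difference in *Il10* between the genotypes was not detectable at this depth.

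*Il12a*, the α chain that IL-12 shares with IL-35 (chromosome 3, 68690644 to 68698547, plus strand), was low but above the floor in every library. It had 14.2, 26.7 and 15.4 normalized counts in KO 1, 2 and 3 (18.8 ± 6.90, SD, n = 3) and 7.56, 24.0 and 6.02 in WT 1, 2 and 3 (12.5 ± 9.99, SD, n = 3). WT 2 stood well above the other WT libraries and above KO 1 and KO 3, so the genotypes overlapped. The values rest on 15, 28 and 17 fragments in KO and on 8, 23 and 5 in WT. *Il12a* was the only one of the 8 genes higher in KO in all 3 pairs, with ratios of 1.87 (95% counting interval 0.746 to 5.10), 1.11 (0.616 to 2.02) and 2.56 (0.908 to 8.89). Each of these intervals includes 1. The log2 fold change was 0.73 (SE 0.36, 95% interval -0.13 to 1.60, unadjusted *p* = 0.0840, adjusted *p* = 0.970 in limma), and it lay between 0.48 and 1.03 when 1 replicate was left out. Of all genes tested, 11.7% were higher in KO in all 3 pairs.

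*Ebi3* encodes the β subunit of IL-27 and IL-35 and lies on chromosome 17 from 55952640 to 55957022 on the plus strand, overlapping the antisense gene *Gm16712*, which had a mean of 4.03 normalized counts. Its 607, 625 and 646 normalized counts in KO 1, 2 and 3 (626 ± 19.4, SD, n = 3) stood beside 612, 529 and 603 in WT 1, 2 and 3 (581 ± 45.6, SD, n = 3). WT 2 was the lowest library, and the KO and WT ranges overlapped through WT 1. In pair 2 the ratio was 1.18 (counting interval 1.05 to 1.33), and in pairs 1 and 3 it was 0.992 and 1.07 with intervals that include 1. The log2 fold change was 0.11 (SE 0.077, 95% interval -0.076 to 0.29, adjusted *p* = 0.970 in limma). Among the genes of possible partner chains of EBI3 or of the *Il12a* product, *Il27*, *Il12b* and *Il23a* were at or under the floor in all 6 libraries. Per length, *Ebi3* was at least 148-fold higher than *Il27* set at 3 fragments in each library, and its level was 62.4 times that of *Il12a* by the median over libraries (32.4 to 148). The narrowest of these differences was in replicate 2, where *Il12a* was highest.

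*Ccl22*, which encodes a chemokine that attracts T cells bearing CCR4 (chromosome 8, 94745590 to 94751699, plus strand), varied most between pairs for its depth. It had 537, 750 and 814 normalized counts in KO 1, 2 and 3 (701 ± 145, SD, n = 3) and 699, 602 and 565 in WT 1, 2 and 3 (622 ± 69.2, SD, n = 3). KO 1 was the lowest of all 6 libraries and KO 3 the highest. The ratio of KO to WT was 0.768 in pair 1 (counting interval 0.688 to 0.858), 1.25 in pair 2 (1.12 to 1.39) and 1.44 in pair 3 (1.29 to 1.62). No interval includes 1, and pair 1 differs in direction from the others. The SD of the log2 ratio over pairs was 0.48, against a counting error of 0.081 for 1 pair. The log2 fold change was 0.15 (SE 0.17, 95% interval -0.24 to 0.55, adjusted *p* = 0.970 in limma). Without replicate 1 it was 0.42 (unadjusted *p* = 0.00277, adjusted *p* = 0.124), and without replicate 3 it was -0.032. *Ccl17*, the gene for the other ligand of CCR4, lies 58753 bases away on chromosome 8. It was at or under the floor in all 6 libraries, and *Ccl22* was at least 34.6-fold higher per length than *Ccl17* at 3 fragments.

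Activated dendritic cells are a known source of both CCL22 and EBI3, so their markers are given beside these genes. Of 7 dendritic cell markers, 2 averaged 10 or more (*Flt3* and *Zbtb46*), while *Clec9a* and *Siglech* were at 0 in all libraries, and *Xcr1* was at or under the floor in all of them. The 7 markers summed to 614 to 1005 normalized counts in KO and to 473 to 703 in WT. *Zbtb46* had a log2 fold change of 0.16 (unadjusted *p* = 0.225, adjusted *p* = 0.970 in limma). *Flt3*, which B cell progenitors also express, made up most of the marker sum. For *Flt3* the log2 fold change was 0.47 (unadjusted *p* = 0.0131, adjusted *p* = 0.930 in limma), where 4.70% of all genes were under 0.05 unadjusted. The part of *Flt3* in the values of *Ccl22* and *Ebi3* was not tested.

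*Tgfb1*, which encodes TGF-β1 (chromosome 7, 25687002 to 25705077, plus strand), was nearly level between littermates. It had 195, 224 and 249 normalized counts in KO 1, 2 and 3 (223 ± 26.7, SD, n = 3) and 196, 229 and 237 in WT 1, 2 and 3 (221 ± 21.6, SD, n = 3). In both genotypes replicate 1 was lowest and replicate 3 highest. The ratios were 0.995, 0.978 and 1.05, and their SD on the log2 scale, 0.053, was smaller than the counting error of 1 pair, 0.14. On that scale KO and WT differed by 0.0097 (SE 0.089, adjusted *p* = 0.995 in limma), with a 95% interval from -0.21 to 0.22.

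*Il6*, an inflammatory cytokine that also supports plasma cells (chromosome 5, 30013114 to 30019981, plus strand), followed the replicate number in both genotypes. It had 58.5, 44.8 and 99.9 normalized counts in KO 1, 2 and 3 (67.7 ± 28.7, SD, n = 3) and 61.4, 35.5 and 104 in WT 1, 2 and 3 (66.8 ± 34.3, SD, n = 3). Replicate 3 was highest and replicate 2 lowest in both genotypes, and KO and WT overlapped fully. The ratios were 0.953 (0.662 to 1.37), 1.26 (0.794 to 2.02) and 0.965 (0.721 to 1.29), and each counting interval includes 1. Over the 3 pairs the log2 fold change was 0.069 (SE 0.17, 95% interval -0.33 to 0.47, adjusted *p* = 0.984 in limma).

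The TNF and lymphotoxin genes lie together on chromosome 17 of GRCm38, within 10913 bases. *Ltb* (35194439 to 35196320) is on the plus strand, and *Tnf* (35199381 to 35202007) and *Lta* (35203165 to 35205351) are on the minus strand. The gap between *Ltb* and *Tnf* is 3060 bases and that between *Tnf* and *Lta* is 1157 bases. Counting used the strand. The same-strand miRNA genes annotated within *Ltb* (*Mir6973a*) and *Lta* (*Mir6974*) had means of 2.12 and 0.157 normalized counts. Despite their closeness, the 3 genes differed in level, since per length *Ltb* was 4.87 times as high as *Lta* by the median over libraries (4.36 to 6.47) and *Tnf* was 2.20 times as high as *Lta* (1.79 to 2.50).

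*Tnf* had 212, 291 and 235 normalized counts in KO 1, 2 and 3 (246 ± 40.3, SD, n = 3) and 245, 267 and 196 in WT 1, 2 and 3 (236 ± 36.0, SD, n = 3). Replicate 2 was highest in both genotypes and the groups overlapped. The ratios were 0.868, 1.09 and 1.20, with counting intervals that all include 1, and the log2 fold change was 0.060 (SE 0.11, 95% interval -0.21 to 0.34, adjusted *p* = 0.976 in limma).

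*Lta* encodes lymphotoxin α, secreted as a trimer or held at the membrane by lymphotoxin β. It had 82.1, 98.2 and 92.6 normalized counts in KO 1, 2 and 3 (91.0 ± 8.16, SD, n = 3) and 86.9, 101 and 92.7 in WT 1, 2 and 3 (93.7 ± 7.31, SD, n = 3). The littermates were nearly equal and the groups overlapped almost entirely. It was the only one of the 8 genes lower in KO in all 3 pairs, with ratios of 0.945, 0.968 and 0.999, where 13.1% of all genes tested were. The SD of the log2 ratio, 0.040, was below the counting error of 1 pair, 0.21. limma put the log2 fold change at -0.043 (SE 0.13, 95% interval -0.35 to 0.26, adjusted *p* = 0.989).

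*Ltb*, the membrane anchor, had 407, 697 and 443 normalized counts in KO 1, 2 and 3 (516 ± 158, SD, n = 3) and 459, 547 and 563 in WT 1, 2 and 3 (523 ± 56.2, SD, n = 3). KO 2 stood above every other library, and KO 1 and KO 3 stood below all WT libraries. The ratio was 0.886 in pair 1 (counting interval 0.777 to 1.01), 1.27 in pair 2 (1.14 to 1.43) and 0.786 in pair 3 (0.691 to 0.895), so pairs 2 and 3 differed beyond counting error in opposite directions. Over all pairs the log2 fold change was -0.057 (SE 0.13, 95% interval -0.38 to 0.27, adjusted *p* = 0.984 in limma). It was 0.088 without replicate 3 and -0.26 without replicate 2.

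**Figure D2:**
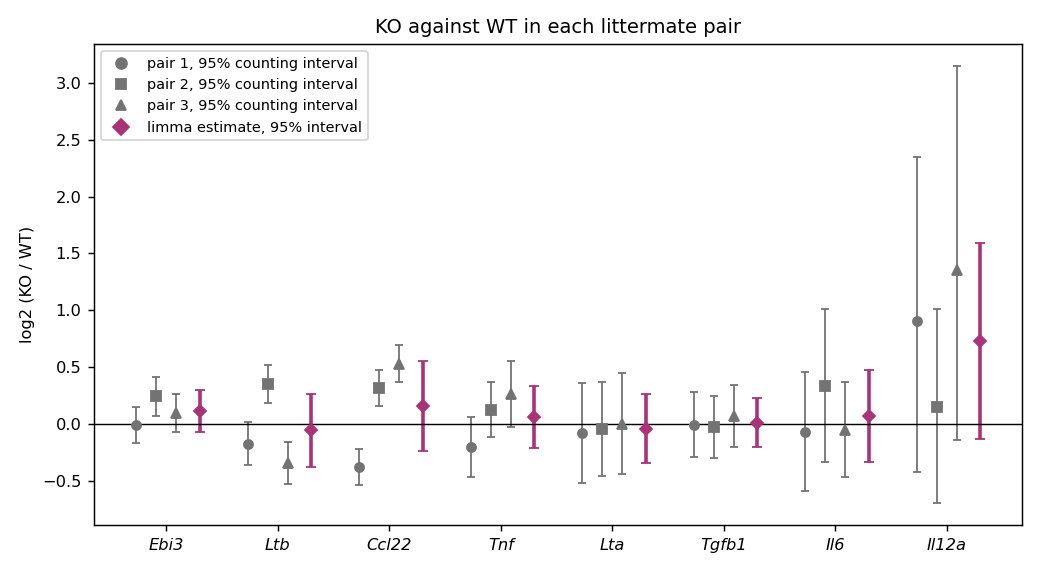
Log2 ratio of KO to WT in each littermate pair (grey, with 95% counting intervals) and the estimate of limma over the 3 pairs (purple, with its 95% interval) for the 8 genes tested. Every limma interval includes 0, *Ccl22* and *Ltb* have pairs on both sides of 0 whose counting intervals leave it out, and *Lta* and *Tgfb1* lie within 0.1 of 0 in every pair.

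Of the 8 genes tested, 0 passed an adjusted *p* of 0.05 in limma and 0 passed an unadjusted *p* of 0.05, and edgeR and DESeq2 gave 0 at an unadjusted *p* of 0.05 as well. Over all 12322 genes limma called 0% at an adjusted *p* under 0.05 (0 genes, the smallest adjusted *p* being 0.653) and 4.70% at an unadjusted *p* under 0.05 (579 genes). KO and WT did not overlap in 0 of the 8 genes and in 6.83% of all genes tested. The median log2 fold change of the 8 was 0.065, from -0.057 to 0.73, beside a median of 0.00067 over all genes. A *p* above 0.05 does not show that the genotypes are alike. The 95% intervals of the log2 fold change reached up to 0.22 for *Tgfb1* and 0.29 for *Ebi3*, but up to 1.60 for *Il12a*, the gene with the fewest fragments of the 8. An exact permutation test of a single gene over 3 pairs cannot give a two-sided *p* below 0.25.

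Levels were also compared between replicate numbers, which the labels call batch. Of the 8 genes, *Il6* (unadjusted *p* = 0.00145, adjusted *p* = 0.0804) and *Il12a* (unadjusted *p* = 0.0414, adjusted *p* = 0.377) were under 0.05 before adjustment in the F test of limma for replicate number, as had 12.5% of all genes tested. At an adjusted *p* under 0.05, 0 of the 8 passed, against 1.15% of all genes. The mean of both genotypes was 59.9, 40.2 and 102 normalized counts for *Il6* in replicates 1, 2 and 3, a 2.53-fold range. For *Il12a* it was 10.9, 25.4 and 10.7, a 2.36-fold range, so the replicate with the least *Il6* had the most *Il12a*. *Tnf* was also highest in replicate 2, with means of 228, 279 and 216, and so were *Ltb*, with 433, 622 and 503, and *Lta*, with 84.5, 99.8 and 92.7. For *Ltb* this held in KO but not in WT, where replicate 3 was highest. The unadjusted *p* of *Tnf*, *Ltb* and *Lta* in this F test was 0.078, 0.050 and 0.369.

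Sums of cell markers also differed between libraries, only in part alike in KO and WT. The 6 plasma cell markers summed to 17049, 9457 and 11908 normalized counts in KO 1, 2 and 3, and to 12204, 9078 and 19822 in WT 1, 2 and 3. Replicate 2 was lowest in both genotypes, as it was for *Il6*, but replicate 1 was highest in KO and replicate 3 in WT. The B cell markers summed highest in KO 3 and lowest in WT 3. Myeloid cells, a known source of IL-6 and TNF, are covered by 10 markers that summed to 69.6 to 163 in KO and 119 to 167 in WT, with 3 of the 10 averaging 10 or more and *S100a8* and *S100a9* at 0 in every library. The sum was lowest in KO 2 and WT 2. T cells are a known source of lymphotoxins. Their 10 markers summed to 468 to 564 in KO and to 469 to 569 in WT, lowest in KO 2 but highest in WT 2. The sum came mostly through *Thy1* and *Lck*, with 3 of the 10 averaging 10 or more. *Cd3d*, *Cd3e* and *Cd3g* had means of at most 4.8. None of the 7 NK and mast cell markers averaged 10 or more, and these summed to 8.6 to 17.9 in KO and 9.4 to 14.4 in WT. The part of any of these cells in the cytokine levels was not tested.

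**Figure D3:**
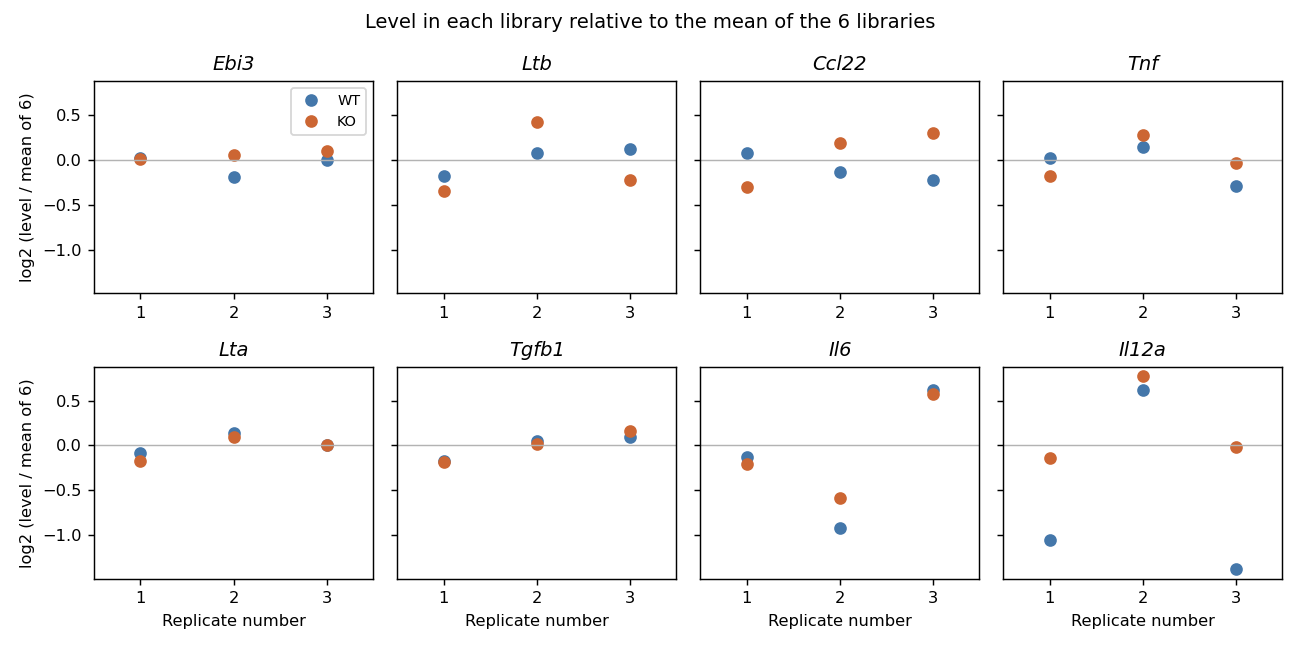
Level of the 8 genes in each library as log2 of the ratio to their mean over the 6 libraries, by replicate number, with WT in blue and KO in orange. *Il6* is lowest in replicate 2 (mean 40.2 normalized counts) and highest in replicate 3 (102) in both genotypes, and *Il12a* is highest in replicate 2 (25.4).

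The mRNAs of the receptors for these cytokines were examined in the same cultures. Receptor protein, and which cells carry it, were not measured. Of 15 receptor genes, 11 averaged 10 or more. *Tgfbr2* (663) and *Tgfbr1* (266), the paired TGF-β receptor kinases, were both expressed. *Il6st*, the signalling chain for IL-6 and IL-27, had a mean of 520 and *Il6ra*, which binds IL-6, had 87.8. *Il10ra* (260) and *Il10rb* (134) were present, as were *Il27ra* (255) and *Il12rb1* (218), whereas *Il12rb2* had a mean of 1.8. *Ccr4*, the receptor for CCL22, had a mean of 313. Of the receptors of the TNF family, *Tnfrsf1b* (175), a receptor for TNF, and *Tnfrsf14* (248), which binds lymphotoxin α, were expressed, while *Tnfrsf1a*, the other receptor for TNF, and *Ltbr*, through which stromal cells sense membrane lymphotoxin, were at or under the floor in all libraries. Per length, *Tnfrsf1b* was at least 31.2-fold higher than *Tnfrsf1a* set at 3 fragments.

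Of the 11 receptors tested, 0 were at an adjusted *p* under 0.05 in limma, and the median log2 fold change was 0.013. An unadjusted *p* under 0.05 was found for 1 of them and for 4.70% of all genes tested. This was *Il6st*, with 699, 542 and 509 normalized counts in KO 1, 2 and 3 and 518, 461 and 389 in WT 1, 2 and 3. *Il6st* was higher in KO in all 3 pairs, as were 3 of the 11 receptors and 11.7% of all genes tested. KO 3 lay below WT 1 (log2 fold change 0.35, SE 0.076, unadjusted *p* = 0.00285, adjusted *p* = 0.737 in limma).

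**Figure D4:**
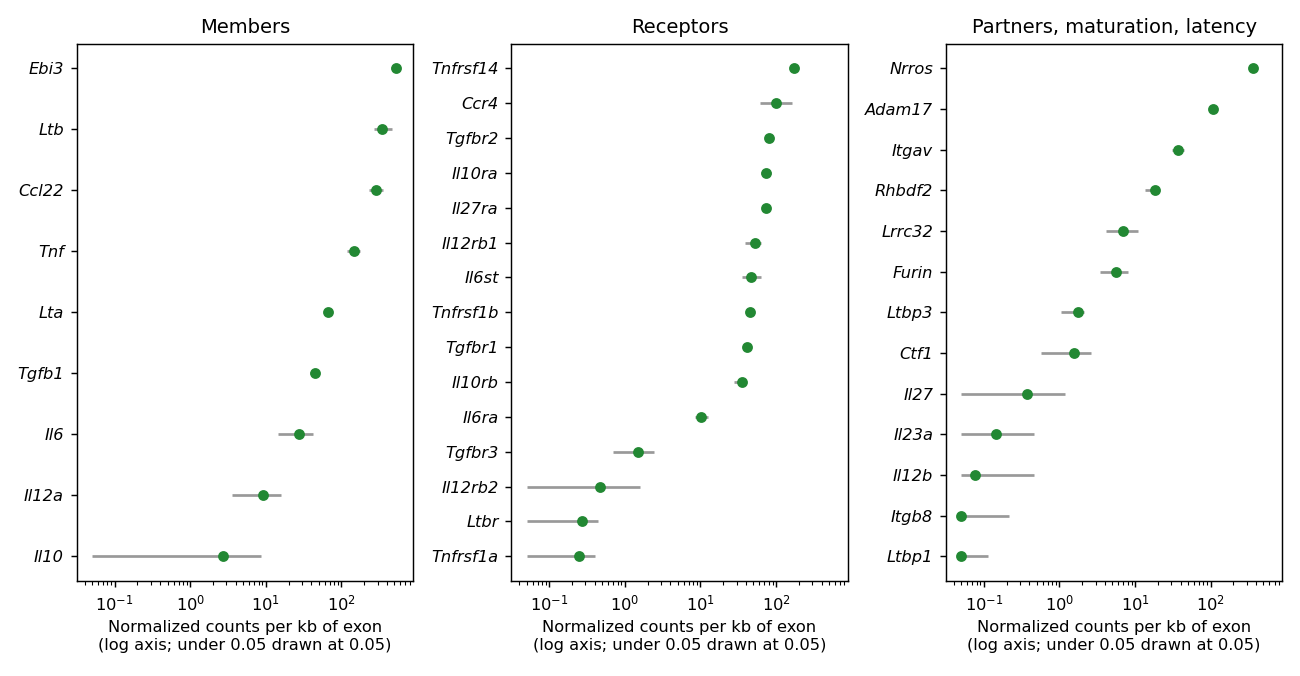
Mean level (points) and range over the 6 libraries (lines) in normalized counts per kb of exon, on log axes, for the 9 genes, their receptors and their partner, maturation and latency genes. *Ebi3* leads the cytokines at 523 per kb, and *Tnfrsf1a*, *Ltbr*, *Il27*, *Il23a* and *Il12b* lie among the lowest of their panels.

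Genes for processing and storage of the cytokines were partly expressed, 7 of 13 averaging 10 or more. *Adam17*, whose protease releases TNF from the membrane, had a mean of 765 normalized counts, and *Rhbdf2*, which brings that protease to the surface, had 97.7. *Nrros* (1540) and *Lrrc32* (32.4) encode proteins that hold latent TGF-β1 on the cell, *Ltbp3* (15.7) one that holds it in the matrix and *Furin* (52.0) the protease that cuts its precursor. *Itgav* (399) encodes the α chain of the integrins that activate TGF-β1, while the β chain gene *Itgb8*, with *Ltbp1*, was at or under the floor in all libraries. None of the 7 was at an unadjusted *p* under 0.05 in limma, and their median log2 fold change was -0.017.

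All 11 genes for proteins that bind AU-rich or stem-loop elements of cytokine mRNAs averaged 10 or more. Those that shorten the life of such mRNAs were *Zfp36* (184 normalized counts), *Zfp36l1* (909), *Zfp36l2* (144), *Zc3h12a* (181), *Zc3h12c* (236), *Rc3h1* (967), *Rc3h2* (1064), *Khsrp* (908) and *Hnrnpd* (424), and those known to protect them were *Elavl1* (730) and *Arid5a* (2558). The median log2 fold change of the 11 was 0.043. An unadjusted *p* under 0.05 in limma was found for 1 of them and for 4.70% of all genes tested. This was *Zc3h12c*, which encodes a relative of Regnase-1, with 207, 151 and 202 normalized counts in KO 1, 2 and 3 and 240, 245 and 371 in WT 1, 2 and 3. All WT libraries stood above all KO libraries. KO and WT did not overlap in 2 of the 11 genes and in 6.83% of all genes tested. The log2 fold change of *Zc3h12c* was -0.59 (SE 0.14, unadjusted *p* = 0.00447, adjusted *p* = 0.737 in limma), and DESeq2 gave an adjusted *p* of 0.631. Without replicate 1 the value was -0.78 (adjusted *p* = 0.0209), in a fit that called 168 genes lower in all, without replicate 2 it was -0.54 (adjusted *p* = 0.984) and without replicate 3 it was -0.46 (adjusted *p* = 0.799).

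Of 16 signal transducers and feedback genes, all averaged 10 or more, with a median log2 fold change of 0.075. An unadjusted *p* under 0.05 in limma was found for 1 of the 16 and for 4.70% of all genes tested. This was *Stat4*, which acts below the IL-12 receptor, with 328, 360 and 352 normalized counts in KO 1, 2 and 3 and 308, 301 and 277 in WT 1, 2 and 3, without overlap (log2 fold change 0.23, SE 0.088, unadjusted *p* = 0.0351, adjusted *p* = 0.970 in limma). KO and WT did not overlap in 3 of the 16 genes and in 6.83% of all genes tested. The unadjusted *p* of *Stat4* was 0.183 in DESeq2, and 0 genes of this list were under 0.05 before adjustment in DESeq2 or without replicate 2.

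Few other cytokine genes were expressed. Of 37 others examined, 7 averaged 10 or more normalized counts, 18 were at or under the floor in all libraries, and 10 of these had no fragment at all. The highest were *Mif* (1357 normalized counts), which encodes macrophage migration inhibitory factor, and *Il16* (1354), which encodes a ligand of CD4, followed by *Csf1* (219), the growth factor of macrophages. The TNF family ligands *Tnfsf8* (93.3), *Tnfsf4* (61.2) and *Tnfsf9* (29.2), and *Osm* (50.8), a cytokine that signals through the chain encoded by *Il6st*, were lower. The chemokine gene *Ccl3* came next at 8.5. None of the 7 was at an unadjusted *p* under 0.05, with a median log2 fold change of 0.12.

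The genes whose levels followed each cytokine most closely over the 6 libraries were ranked by Pearson's *r* of log2(normalized count + 1) over the 9588 genes that averaged 50 or more. With so few libraries, which also share litters, many genes reach a high *r*, and the values are descriptions only. They were *Ehd1*, *Ppp1r37* and *Ttc37* for *Il6* (*r* = 0.994, 0.992 and 0.988), *AU022252*, *Nudt19* and *Cyfip1* for *Tnf* (0.996, 0.992 and 0.989), and *Ifnar2*, *Uck2* and *Papss2* for *Ltb* (0.998, 0.995 and 0.993). For *Lta* they were *Wdr82*, *Usp39* and *Rbbp7* (0.991, 0.983 and 0.982), and for *Tgfb1* *Plk1*, *Arl16* and *Gimap3* (0.993, 0.991 and 0.986). For *Ccl22* they were *Kpna6*, *Bdp1* and *2610021A01Rik* (0.982, 0.977 and 0.974), and for *Ebi3* *Atrn*, *Slc10a7* and *Cdc25b* (0.977, 0.977 and 0.967). None of these 7 genes stood among the 3 nearest of another, and *Il10* and *Il12a*, which averaged less than 50, were not ranked. Between the cytokine genes themselves *r* was highest for *Lta* and *Ltb* (0.768) and lowest for *Il6* and *Tnf* (-0.737).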

How the data were processed

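RNA-seq of 3 KO and 3 WT libraries was used. Total RNA was depleted of rRNA and sequenced as stranded libraries. The authors aligned reads with STAR (2.6.1a), counted fragments on exons with featureCounts (Subread 1.6.3, Gencode vM19) and scaled each library with a DESeq2 size factor. Normalized counts of this kind were deposited by the authors without a filter, and they are treated as a signal rather than as raw counts. Such scaling hides a change shared by most transcripts. Groups and replicate numbers came from the labels. Each number is a KO and a WT littermate, and for this reason it was a block in the model. Deviations from the group means correlated within pairs at 0.328, 0.685 and 0.170, though KO 3 with WT 1 (0.282) and KO 1 with WT 3 (0.260) were above the last of these. No libraries were duplicates.

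From the deposited values, fragments were recovered: dividing by the value of 1 fragment gave whole numbers, within 0.01, for 100% of nonzero values. Depth was 5393558 to 6793520 fragments. Symbols and positions came from Gencode vM21 (54409 of 54446 identifiers). The test was limma 3.58.1 (R 4.3.3; eBayes with trend, two-sided, Benjamini-Hochberg over 12322 genes) on log2(normalized count + 1) for genes with a mean of at least 10, threshold 0.05. Fold changes on this scale understate those of low genes. On the recovered fragments, edgeR 4.0.16 called 0 genes and DESeq2 1.42.0 called 22 lower and 1 higher at an adjusted *p* under 0.05. Counting intervals of ratios are exact, from the binomial share of fragments, at 95%. The model fits were tested on simulated data.

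The 9 genes and all lists were chosen with earlier results of these data known. Named were all 9, expressed receptors and partner genes, all decay factors, the 8 highest other cytokines, list genes at an unadjusted *p* under 0.05, *Tent5c* and the 3 nearest genes by *r*. *Il12rb2*, *Tnfrsf1a*, *Ltbr*, *Itgb8*, *Ltbp1*, *Il27*, *Il12b*, *Il23a* and *Ccl17* were named for being low. The test of replicate numbers was added after the levels were seen. Alternatives were other pseudocounts, filters, scalings and tests, no block, and each replicate left out.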

Additional observations from a re-analysis of the deposited data

How the results depend on the processing

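With another pseudocount, filter, scaling or test, without the block, and with each replicate left out, the log2 fold changes of the 8 cytokine genes kept their direction and stayed short of an adjusted *p* of 0.05 in 97 of 103 values. The other 6 changed direction, all with 1 replicate left out, where the log2 fold change ranged from -0.060 to 0.14 for *Il6*, -0.020 to 0.030 for *Tgfb1*, -0.032 to 0.42 for *Ccl22*, -0.039 to 0.19 for *Tnf* and -0.26 to 0.088 for *Ltb*. For *Tent5c* it ranged from -0.033 to 0.52. Genes lower in KO at an adjusted *p* under 0.05 numbered 0 in limma, 22 in DESeq2 and 0 to 168 with a replicate left out, and genes higher numbered 0, 1 and 0 to 3. At an unadjusted *p*, 373 genes were lower (194 in DESeq2, 292 to 627 with a replicate left out) and 206 higher (33 in DESeq2, 377 with no filter on low values, 143 to 245 with a replicate left out). Without the replicate block, the pairing is ignored and 170 genes were lower and 126 higher, and the block changed no call of a cytokine gene. Of the 8, 0 to 1 had an unadjusted *p* under 0.05 with a replicate left out, the 1 being *Ccl22* without replicate 1. Genes differing between replicate numbers numbered 142 in limma, 51 with no filter on low values, 247 in DESeq2 and 5 to 728 with a replicate left out. The causes were not tested. Depth limits *Il10* and *Il12a* most.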
